A study of Mus musculus with 8 samples.

Results

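Macrophage and myeloid genes were followed as a group of 39 genes in the brown fat of mice lacking Prdm16 and of wild-type mice, at 11 months and at 6 weeks of age. The genes were chosen by name, and of the 39, 38 had a non-control probe under the listed name on the array. Spi1, which encodes the myeloid transcription factor PU.1, was found under its older name Sfpi1. Together they had 47 of the 39429 probes of the array, and 37 of the 21742 genes tested were members. Tnf, with 3 of 16 channel measurements well above background, and Spi1, with 1 of 16, did not reach the minimum of 4 and were not tested.

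Each of 8 2-colour arrays set RNA of a Prdm16 knockout sample against RNA of an age-matched wild-type sample, with 4 arrays from 11-month-old mice and 4 from 6-week-old mice. The labels call the mice Prdm16 KO and WT, and the sources used here give no allele, Cre driver, strain or sex. The knockout RNA was in Cy5 on arrays 1 and 2 and in Cy3 on arrays 3 and 4 at 11 months, and the other way round at 6 weeks. The labels state that the ages were run in separate batches, so age and batch cannot be told apart in the levels, while each ratio is taken within 1 array. Values are log2(knockout / wild type), positive where the knockout is higher, given per array in the order of arrays 1 to 4 and then as the estimate of a limma model with its standard error (SE). A gene was called at a Benjamini-Hochberg adjusted p below 0.05 over all genes tested, with the dye as a term of the model.

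Macrophages of fat tissue are known as a mixed population. Resident-type cells carry the mannose receptor and make the complement component C1q. Lipid-associated cells, known from obese white fat and atherosclerotic plaques, carry TREM2 with its adaptor TYROBP and make galectin-3 and GPNMB. Inflammatory phagocytes sense microbial products through CD14 and the Toll-like receptors, and neutrophils and newly recruited monocytes are rich in the calcium-binding pair S100A8 and S100A9. PRDM16 is a zinc-finger regulator known for its part in brown adipocyte identity. In RNA of whole tissue, a change in the number of cells and a change in RNA per cell cannot be told apart.

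The targeted gene and the tissue were checked against the labels. Prdm16 was at -0.96, -0.18, -0.44 and -0.42 at 11 months (estimate -0.50 ± 0.15, adjusted p = 0.0372) and at -0.39, 0.06, -1.09 and -0.88 at 6 weeks (estimate -0.58 ± 0.15, adjusted p = 0.042). The ratio was not below 0 on 6-week array 2, and whether the probe lies in the deleted part is not given. Of the 43020 spots per array that are not controls, each channel had 61.2% to 68.2% well above background and 0 were saturated. Skeletal muscle genes (14 tested) had medians of -0.44, -1.14, -0.28 and 1.80 at 11 months and 0.09, -2.76, 2.94 and -3.44 at 6 weeks, so 4 arrays stood apart by their muscle ratio. Counts of members are also given without 6-week arrays 2 and 4 and 11-month array 4, called the 3 muscle-divergent arrays here, or without these and 6-week array 3, the 4 muscle-divergent arrays, which leaves 1 array at 6 weeks.

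At 11 months the macrophage and myeloid genes were mostly higher in knockout brown fat. Of the 37 tested, 24 rose, 0 fell and 13 did not pass the test, and the median estimate was 0.51, against 0.01 over all genes tested. Over all genes, 34.7% were called at this age, 17.9% higher and 16.8% lower. At an unadjusted p below 0.05 in the same limma model, 29 members were higher and 0 lower. The share of all genes at that unadjusted threshold was not counted. The estimate was above 0 for 36 members, the exception being Itgam, and all 4 arrays were above 0 for 28 members, where 25% of all genes had 4 arrays above 0. The rises were mostly modest, from 1.17-fold for Itgb2 to 3.09-fold for Lgals3. Leaving out 11-month array 1 lowered the count to 15, where 24.9% of all genes were called. The count was 14 without the 3 muscle-divergent arrays, where 22.4% of all genes were called. Without the 4, the median estimate of the members was 0.41.

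At 6 weeks the same genes were near the wild-type level as a group. Cd14 rose, Lyz2 fell and 35 did not pass the test, with a median of 0.02, against 0.00 over all genes. The background was 16.2% of all genes called, 9.18% higher and 7.01% lower, so the 2 members called were a smaller share than that of all genes. Without the 3 muscle-divergent arrays, 2 members passed (Lgals3 and Trem2), where 3.68% of all genes were called. Without the 4, 8 members passed, 4 higher and 4 lower, where 17.6% of all genes were called. Neither setting called Cd14 or Lyz2.

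**Figure D1:**
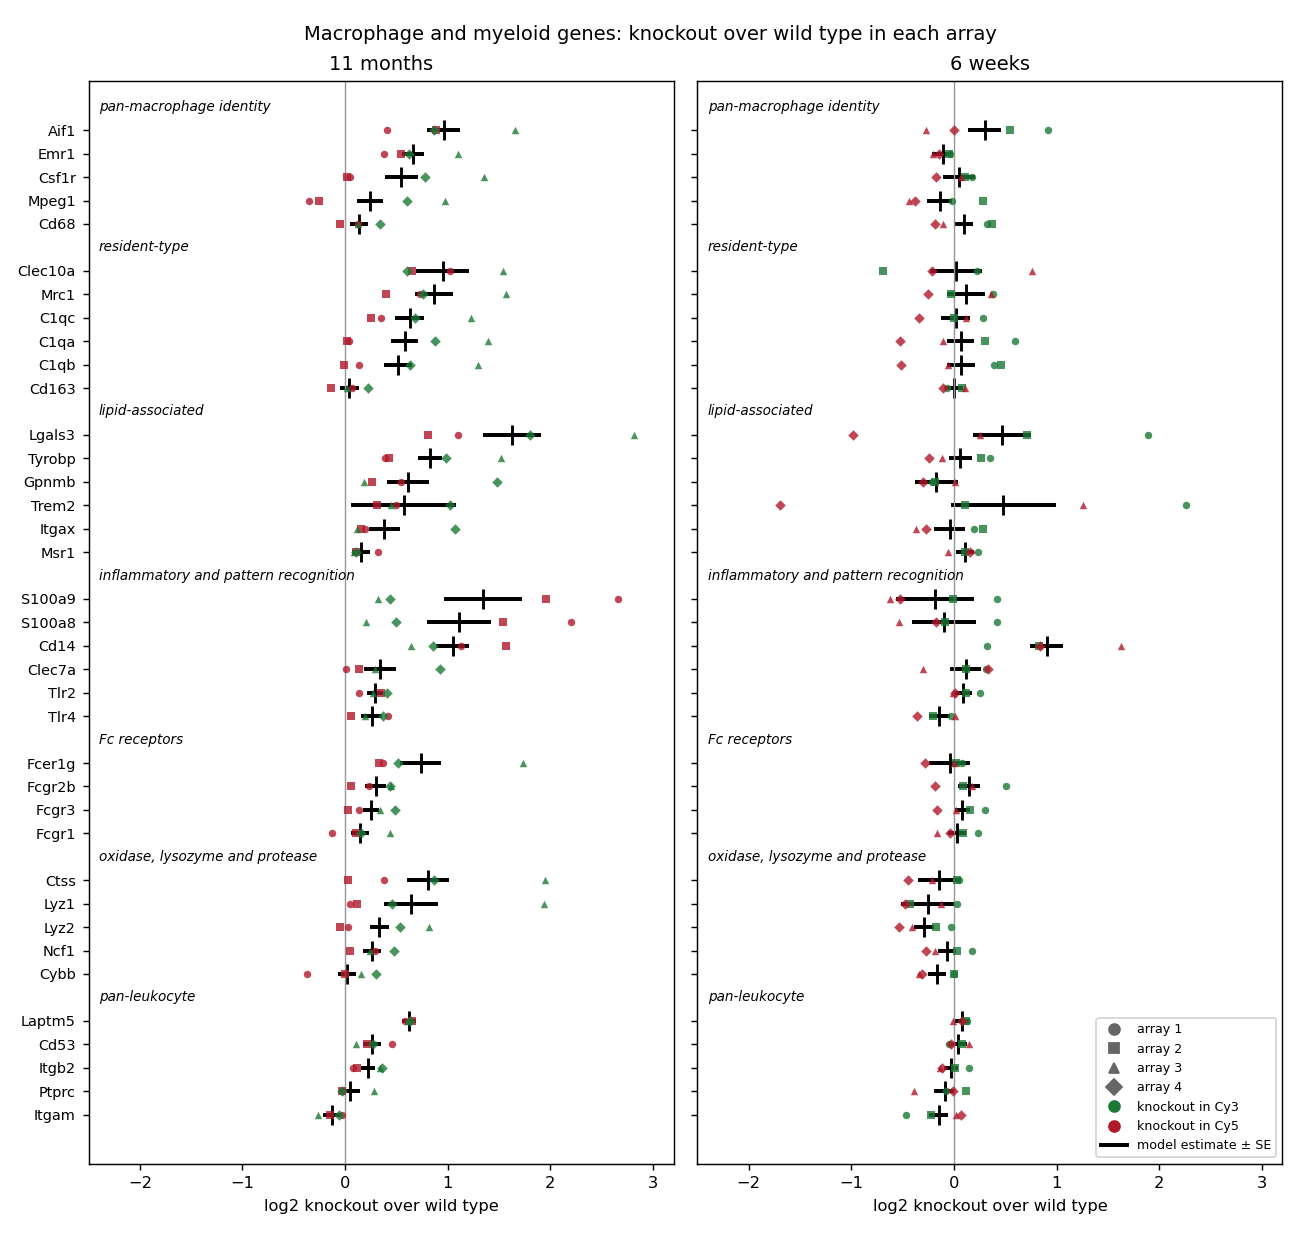
Log2 ratio of knockout over wild type of the 37 tested macrophage and myeloid genes, grouped by role, at 11 months (left) and 6 weeks (right). Points are single arrays, coloured by the dye of the knockout RNA, and the black bars are the model estimate with its SE. At 11 months 36 of 37 estimates lie above 0, and at 6 weeks the estimates lie on both sides of 0.

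Of the 5 genes that mark macrophages as a class, 3 rose at 11 months (2 without the 3 muscle-divergent arrays, 4 without the 4) and none passed at 6 weeks. Emr1, the gene of an adhesion receptor that serves as the classical marker of mouse macrophages (probe at chr17:57622868-57622927, build mm9), had normalized intensities of 402, 384, 829 and 337 in 11-month-old knockout tissue, against 308, 265, 387 and 219 in wild-type tissue. Its ratios were 0.38, 0.54, 1.1 and 0.62 at 11 months and -0.04, -0.05, -0.20 and -0.15 at 6 weeks. Every knockout sample was above its wild-type partner at 11 months and slightly below it at 6 weeks, and the 2 ages did not overlap. The estimate was 0.66 ± 0.09 at 11 months (adjusted p = 0.000912) and -0.11 ± 0.09 at 6 weeks (adjusted p = 0.416), and the difference of 0.77 ± 0.12 passed (adjusted p = 0.00631). A second probe of Emr1 gave a smaller 11-month estimate of 0.30 (adjusted p = 0.0106 over all probes), with arrays 1 and 2 at -0.11 and -0.12.

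Aif1, which encodes an actin-binding protein of macrophages and microglia, rose at 11 months with ratios of 0.41, 0.89, 1.66 and 0.87 (0.96 ± 0.14, adjusted p = 0.0017). At 6 weeks its ratios spread over 0.92, 0.55, -0.27 and 0.00 and did not pass (adjusted p = 0.19). Csf1r, the receptor for the macrophage growth factors CSF1 and IL-34, was at 0.05, 0.02, 1.35 and 0.78 at 11 months (0.55 ± 0.14, adjusted p = 0.0187). Its rise was carried by arrays 3 and 4, in which the knockout was in Cy3. Without array 3 the estimate was 0.35 (adjusted p = 0.0444), and its other 2 probes gave 11-month estimates of -0.01 and 0.14 that did not pass, the mean of the 3 probes being 0.23 (adjusted p = 0.023). Mpeg1, a pore-forming protein of phagocytes, showed the same split, with -0.35, -0.25, 0.97 and 0.60, and did not pass (adjusted p = 0.108). Cd68, a lysosomal glycoprotein much used as a macrophage stain, had 0.13, -0.05, 0.13 and 0.34 (0.14 ± 0.07, adjusted p = 0.168).

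**Figure D2:**
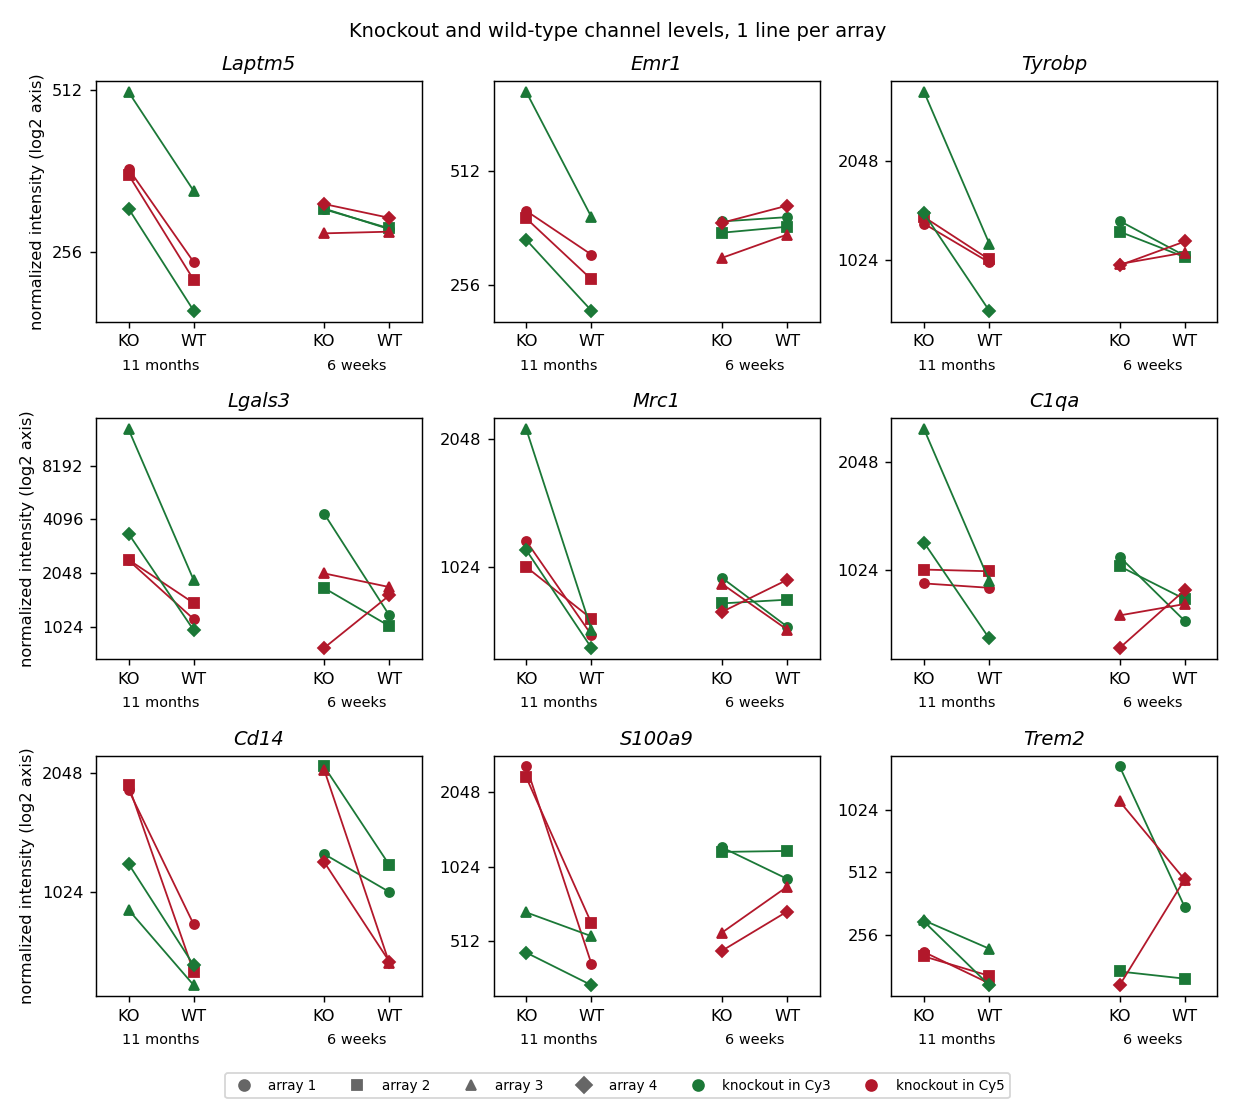
Normalized intensity (log2 axis) of 9 macrophage and myeloid genes in the knockout and wild-type channels, 1 line per array, with 11 months left of 6 weeks in each panel. Lines fall from knockout to wild type on all 4 arrays at 11 months in each of the 9 panels. At 6 weeks they run in both directions, except that all fall for Cd14 and all rise slightly for Emr1.

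Of the 6 resident-type markers, 5 rose at 11 months (5 also without the 3 or the 4 muscle-divergent arrays, and 3 without 11-month array 1) and none passed at 6 weeks. Mrc1, the mannose receptor, had intensities of 1177, 1023, 2157 and 1121 in 11-month-old knockout tissue, against 708, 773, 728 and 660 in wild-type tissue, with no overlap between the genotypes. Its ratios were 0.73, 0.40, 1.57 and 0.76 at 11 months (0.87 ± 0.16, adjusted p = 0.00503) and 0.38, -0.03, 0.36 and -0.25 at 6 weeks. The ages did not overlap, but the difference of 0.75 ± 0.23 did not pass (adjusted p = 0.0602). Clec10a, a galactose-binding lectin, had ratios of 1.02, 0.65, 1.54 and 0.60 (0.95 ± 0.24, adjusted p = 0.017). Its call ended without 11-month array 1 or array 3 (adjusted p = 0.0643 to 0.0664). Cd163, the scavenger receptor for haemoglobin bound to haptoglobin, was not higher at either age, with 0.07, -0.14, 0.02 and 0.22 at 11 months (0.04 ± 0.07, adjusted p = 0.687), and its probe was well above background in only 5 of 16 channel measurements.

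The 3 chains of C1q, the recognition part of the classical complement pathway, lie beside each other on chromosome 4 and had like profiles over the arrays. C1qa was at 0.04, 0.02, 1.39 and 0.88 at 11 months, C1qb at 0.14, -0.01, 1.29 and 0.63, and C1qc at 0.35, 0.25, 1.23 and 0.68. Arrays 3 and 4 were high and arrays 1 and 2 near 0 for C1qa and C1qb, while all 4 arrays were above 0 for C1qc. The estimates were 0.58 ± 0.11 for C1qa (adjusted p = 0.00547), 0.51 ± 0.12 for C1qb (adjusted p = 0.0117, and 0.0518 without 11-month array 1) and 0.63 ± 0.12 for C1qc (adjusted p = 0.00539). At 6 weeks C1qa was at 0.59, 0.30, -0.11 and -0.53, again higher where the knockout was in Cy3, and its estimate was 0.06 ± 0.11. The difference between ages passed for C1qc (0.61 ± 0.17, adjusted p = 0.0439), a call that ended without any 1 of 7 arrays, 6-week array 3 being the exception (adjusted p = 0.0532 to 0.117).

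Of the 6 lipid-associated markers, 3 rose at 11 months (2 without the 3 muscle-divergent arrays, 4 without the 4) and none passed at 6 weeks. Lgals3, which encodes galectin-3, had the largest estimate of the members. Its intensity was 2413, 2430, 13094 and 3402 in 11-month-old knockout tissue, against 1129, 1388, 1868 and 978 in wild-type tissue, and the ratios were 1.1, 0.81, 2.81 and 1.80 (1.63 ± 0.26, adjusted p = 0.0025). The genotypes did not overlap at this age. At 6 weeks Lgals3 spread over 1.89, 0.71, 0.25 and -0.98 (0.47 ± 0.26, adjusted p = 0.26), so the replicates were on both sides of 0.

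Tyrobp, the signalling adaptor of TREM2 and of other activating receptors, had 0.39, 0.43, 1.52 and 0.98 at 11 months (0.83 ± 0.10, adjusted p = 0.000564) and 0.35, 0.26, -0.12 and -0.24 at 6 weeks (0.06 ± 0.10, adjusted p = 0.697). The ages did not overlap, and the difference of 0.77 ± 0.14 passed (adjusted p = 0.0101). Gpnmb, a glycoprotein of lysosome-rich macrophages, had 0.54, 0.26, 0.18 and 1.48 (0.61 ± 0.19, adjusted p = 0.0393). Array 4 stood above the other 3, the estimate was 0.30 without it (adjusted p = 0.0439), and the call ended without 11-month array 1 or 2 or without 6-week array 1, 2 or 4 (adjusted p = 0.0535 to 0.121).

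Trem2, the lipid-sensing receptor that gives these cells their usual name, did not pass at either age. At 11 months the ratios were 0.50, 0.31, 0.45 and 1.02, all above 0, with an estimate of 0.57 ± 0.49 (adjusted p = 0.412). At 6 weeks the knockout samples were at intensities of 1661, 170, 1126 and 146, against 347, 157, 471 and 475 in wild-type samples, so 2 knockout samples were far above the rest and 1 was far below its partner. The resulting ratios of 2.26, 0.11, 1.26 and -1.70 were the widest spread of any member (SD 1.70, n = 4, against 0.31 at 11 months), and since the model shares 1 estimate of the spread between the ages, they widened the 11-month SE as well. With each age modelled alone, Trem2 passed at 11 months (0.57, adjusted p = 0.0174) and not at 6 weeks. At 6 weeks it passed without the 3 muscle-divergent arrays (1.76, adjusted p = 0.0311). Itgax, the integrin CD11c, had 0.19, 0.15, 0.12 and 1.07 (0.38 ± 0.13, adjusted p = 0.0574), with array 4 apart. Msr1, a scavenger receptor for modified lipoproteins, was well above background at 11 months in knockout tissue on 3 of 4 arrays and in wild-type tissue on 0 of 4. Its normalized log2 means were 6.88 in knockout and 6.72 in wild-type tissue, and the difference did not pass (adjusted p = 0.119).

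Of the 6 inflammatory and pattern recognition markers tested, 4 rose at 11 months. The count was 2 without 11-month array 1 or array 2, 1 without the 3 muscle-divergent arrays and 3 without the 4. Cd14, a co-receptor for bacterial lipopolysaccharide, was the only member called higher at both ages. It had intensities of 1860, 1907, 923 and 1207 in 11-month-old knockout tissue, against 847, 642, 594 and 667 in wild-type tissue, and of 1278, 2131, 2093 and 1220 in 6-week-old knockout tissue, against 1024, 1199, 676 and 682 in wild-type tissue. The knockout sample was above its partner on all 8 arrays. The estimates were 1.05 ± 0.14 at 11 months (adjusted p = 0.00112) and 0.90 ± 0.14 at 6 weeks (adjusted p = 0.00779), and the difference of 0.14 ± 0.20 did not pass (adjusted p = 0.658). The 6-week estimate was 0.97 without the 3 muscle-divergent arrays (adjusted p = 0.0523) and 0.68 without the 4 (adjusted p = 0.0735), so the 6-week call ended there.

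S100a8 and S100a9, which form a calcium-binding pair and lie near each other on chromosome 3, were high on other arrays than C1q. At 11 months S100a8 was at 2.2, 1.54, 0.20 and 0.50, and S100a9 at 2.66, 1.96, 0.32 and 0.44. Arrays 1 and 2 were high for both and arrays 3 and 4 low but above 0. The estimates were 1.11 ± 0.29 for S100a8 (adjusted p = 0.0211) and 1.34 ± 0.36 for S100a9 (adjusted p = 0.0237). Leaving out array 1 or 2 ended both calls, with adjusted p = 0.0901 to 0.0936 for S100a8 and 0.104 to 0.107 for S100a9. At 6 weeks neither passed, S100a9 being at 0.42, -0.01, -0.62 and -0.53.

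Tlr2, the receptor for bacterial lipoproteins, rose slightly at 11 months, with 0.14, 0.35, 0.27 and 0.41 (0.29 ± 0.06, adjusted p = 0.00647). Its estimate was 0.28 without the 3 muscle-divergent arrays, where the call ended (adjusted p = 0.082). Tlr4, the lipopolysaccharide receptor, had 0.42, 0.06, 0.19 and 0.37 and did not pass (0.26 ± 0.09, adjusted p = 0.0514). Clec7a, the beta-glucan receptor dectin-1, had 0.01, 0.14, 0.29 and 0.92 (adjusted p = 0.0835). Tnf, the cytokine, had too little signal to be tested.

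**Figure D3:**
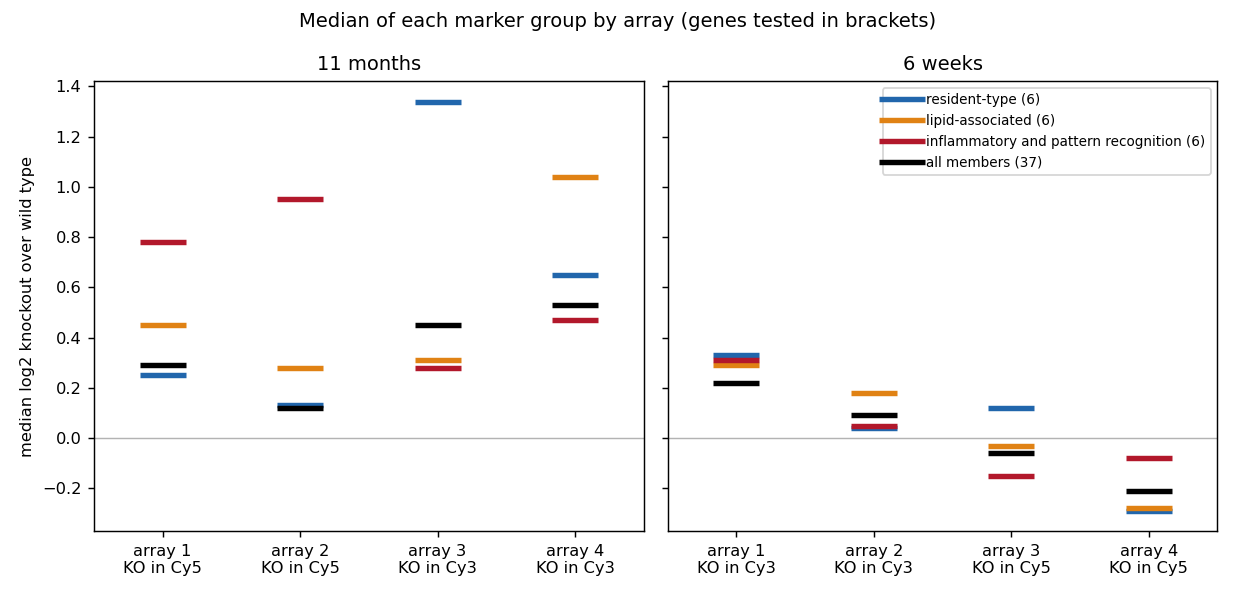
Median log2 ratio of knockout over wild type by array for resident-type, lipid-associated and inflammatory markers and for all 37 tested members, at 11 months (left) and 6 weeks (right). At 11 months the inflammatory median is highest on arrays 1 and 2, the resident-type median on array 3 and the lipid-associated median on array 4.

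Set side by side, the 3 classes had medians of 0.61 for resident-type, 0.59 for lipid-associated and 0.69 for inflammatory markers at 11 months, and of 0.04, 0.09 and 0.00 at 6 weeks. By array at 11 months, the resident-type median was 0.25, 0.13, 1.34 and 0.65, the lipid-associated median 0.45, 0.28, 0.31 and 1.04, and the inflammatory median 0.78, 0.95, 0.28 and 0.47. The order of the classes thus changed from array to array. The lipid-associated median was above the resident-type median on 3 of 4 arrays at 11 months and on 2 of 4 at 6 weeks, and the inflammatory median was above it on 2 of 4 at each age. The classes were not ranked, since these differences ran from -1.06 to 0.82 between arrays of 1 age.

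Among the Fc receptors, which bind the constant part of antibodies, 3 of 4 rose at 11 months (2 without the 3 or the 4 muscle-divergent arrays, and 1 without 11-month array 1 or array 4) and none passed at 6 weeks. Fcer1g, the shared signalling chain, had 0.37, 0.33, 1.73 and 0.52 (0.74 ± 0.18, adjusted p = 0.0161), and without array 3 the estimate was 0.43 (adjusted p = 0.00548). Fcgr2b, the inhibitory receptor, had 0.23, 0.06, 0.45 and 0.44 (0.30 ± 0.09, adjusted p = 0.0328), a call that ended without any 1 of the 11-month arrays (adjusted p = 0.0749 to 0.131). Fcgr3, an activating receptor closely related to Fcgr2b in sequence, had 0.14, 0.03, 0.34 and 0.49 (0.25 ± 0.06, adjusted p = 0.0134), and its call ended without 11-month array 1 or 4 (adjusted p = 0.0539 to 0.0636). Whether the Fcgr2b and Fcgr3 probes also bind each other's transcript was not tested. Fcgr1, the high-affinity receptor, had -0.13, 0.11, 0.44 and 0.15 and did not pass (adjusted p = 0.156). Its probe was well above background at 11 months in 4 of 4 knockout and 1 of 4 wild-type channels. With the scanner software's log ratio its estimate was 1.32 and passed (adjusted p = 0.0254).

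Of the oxidase, lysozyme and protease genes, Ctss, Lyz2 and Ncf1 rose at 11 months and Lyz1 and Cybb did not pass. The count of 3 was 1 (Ctss) without the 3 muscle-divergent arrays. Without the 4, the 11-month estimates of Ncf1 and Lyz1 were 0.21 and 1.01. Ctss, the lysosomal protease cathepsin S, had 0.38, 0.03, 1.95 and 0.87 at 11 months (0.81 ± 0.19, adjusted p = 0.0127) and 0.05, 0.03, -0.21 and -0.45 at 6 weeks. Array 3 was the highest, and the 11-month estimate was 0.51 without it (adjusted p = 0.00977). Its difference between ages was 0.95 ± 0.27 (adjusted p = 0.0447), a call that ended without any 1 of 6 arrays (adjusted p = 0.0536 to 0.121), 11-month arrays 3 and 4 being the exceptions. Ncf1, a cytosolic subunit of the phagocyte oxidase, had 0.29, 0.05, 0.24 and 0.48 (0.27 ± 0.07, adjusted p = 0.0192), and its call ended without 11-month array 1 or 4 (adjusted p = 0.0746 to 0.0938). Cybb, the membrane subunit of the same oxidase, had -0.37, 0.00, 0.15 and 0.30 (adjusted p = 0.844).

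Lyz2, the lysozyme of mouse macrophages, was the 1 member called in opposite directions at the 2 ages. At 11 months it had 0.03, -0.05, 0.82 and 0.53 (0.33 ± 0.08, adjusted p = 0.0117), and at 6 weeks -0.03, -0.18, -0.41 and -0.54 (-0.29 ± 0.08, adjusted p = 0.0399). The difference of 0.62 ± 0.11 passed (adjusted p = 0.00885) and held without any single array, whereas the 6-week call ended without any 1 of 6 arrays (adjusted p = 0.0579 to 0.15). Lyz1, its neighbour on chromosome 10 and near-identical in sequence, had 0.05, 0.12, 1.94 and 0.46 at 11 months and did not pass (0.64 ± 0.24, adjusted p = 0.0769). Whether each lysozyme probe also binds the other transcript was not tested.

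Of the 5 pan-leukocyte genes, 3 rose at 11 months, and 1 did so without the 3 or the 4 muscle-divergent arrays. Laptm5, a lysosomal membrane protein of blood-cell lineages (probe at chr4:130490785-130490844, build mm9), was the most even of all members by this probe. Its intensities were 365, 356, 507 and 308 in 11-month-old knockout tissue, against 245, 227, 332 and 199 in wild-type tissue. The ratios of 0.58, 0.65, 0.61 and 0.63 differed by less than 0.1 (SD 0.0324, n = 4), and those at 6 weeks were 0.13, 0.12, -0.01 and 0.08. The estimates were 0.62 ± 0.05 at 11 months (adjusted p = 0.000103) and 0.08 ± 0.05 at 6 weeks (adjusted p = 0.303), with a difference of 0.54 ± 0.07 (adjusted p = 0.00319). Its second probe was less even, with 0.49, 0.09, 0.30 and 0.48 at 11 months (estimate 0.34, adjusted p = 0.0128 over all probes). The difference between ages did not pass by that probe (adjusted p = 0.0779).

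Itgb2, the shared beta chain of the leukocyte integrins, had 0.08, 0.12, 0.34 and 0.36 at 11 months (0.23 ± 0.05, adjusted p = 0.00916) and a difference between ages of 0.25 ± 0.07 (adjusted p = 0.0423), a call that ended without any 1 of the 8 arrays (adjusted p = 0.0583 to 0.113). Cd53, a tetraspanin, was well above background in all 4 knockout channels and in 0 of 4 wild-type channels at 11 months, and its wild-type level is thus only bounded. Its normalized log2 means were 7.06 in knockout and 6.80 in wild-type tissue (adjusted p = 0.0178), a call that ended without 11-month array 1 or 4. Ptprc, the CD45 phosphatase of all leukocytes, had -0.03, -0.03, 0.28 and -0.03 and did not pass (adjusted p = 0.689). Itgam, the integrin CD11b of monocytes and neutrophils, was at -0.03, -0.15, -0.26 and -0.06 by its brightest probe (-0.12 ± 0.07, adjusted p = 0.242). Its other 2 probes gave -0.50 (adjusted p = 0.0064 over all probes) and 0.00, so the probes of Itgam disagreed.

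The change between the ages was tested as the 11-month minus the 6-week estimate. It passed for 7 members, all higher, and was above 0 for 37 of 37 members with a median of 0.42, against 0.01 over all genes. Over all genes 18.2% were called, 8.46% higher and 9.71% lower. At an unadjusted p below 0.05 in limma, 24 members were higher and 0 lower. The share of all genes at that unadjusted threshold was not counted, in this or any other setting. The 7 were Laptm5, Emr1, Lyz2, Tyrobp, Itgb2, C1qc and Ctss, of which Laptm5, Emr1, Lyz2 and Tyrobp held without any single array. Without the 3 muscle-divergent arrays, 0 members passed in limma (10 higher and 1 lower at an unadjusted p below 0.05), where 3.17% of all genes were called. The median there was 0.39, with Emr1 at 0.87, Tyrobp at 0.80, Lyz2 at 0.59 and Laptm5 at 0.57. Without the 4, 15 passed, 14 higher and 1 lower, where 11.5% of all genes were called. For 8 members all 4 ratios at 11 months lay above all 4 at 6 weeks, and 9.02% of all genes did so.

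The promoters of all members with a window were searched for the core of the site bound by PU.1, the factor encoded by Spi1. RefSeq windows (build GRCm38.p6, 250 bases before to 50 after the start) matched 29 of the 39 members. AGGAAG, on either strand, stood in 58.6% of these (17 members) and in 38.4% of all 27025 genes with a window. The longer GAGGAAGT, which contains AGGAAG, stood in 13.8% (C1qc, Cd53, Ctss and S100a8) and in 3.7% of all genes. A match describes letters only, and binding was not measured. The 4 windows printed are those of members called for the difference between ages that had a window, with every match to either motif in capitals, 5′ to 3′ on the strand of the gene.
C1qc, chr4:136892865-136893164, minus strand: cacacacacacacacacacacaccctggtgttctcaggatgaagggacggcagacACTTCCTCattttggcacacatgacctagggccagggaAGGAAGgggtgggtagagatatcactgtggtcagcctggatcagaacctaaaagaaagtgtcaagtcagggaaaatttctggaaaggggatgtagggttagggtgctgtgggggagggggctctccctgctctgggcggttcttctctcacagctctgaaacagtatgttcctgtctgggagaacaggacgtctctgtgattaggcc
Ctss, chr3:95526536-95526835, plus strand: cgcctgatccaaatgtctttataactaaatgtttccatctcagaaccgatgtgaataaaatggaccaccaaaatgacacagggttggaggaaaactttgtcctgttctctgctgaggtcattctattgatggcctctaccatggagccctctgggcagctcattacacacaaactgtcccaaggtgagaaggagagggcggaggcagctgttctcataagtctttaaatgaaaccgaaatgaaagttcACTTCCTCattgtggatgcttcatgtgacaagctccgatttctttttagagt
Laptm5, chr4:130913066-130913365, plus strand: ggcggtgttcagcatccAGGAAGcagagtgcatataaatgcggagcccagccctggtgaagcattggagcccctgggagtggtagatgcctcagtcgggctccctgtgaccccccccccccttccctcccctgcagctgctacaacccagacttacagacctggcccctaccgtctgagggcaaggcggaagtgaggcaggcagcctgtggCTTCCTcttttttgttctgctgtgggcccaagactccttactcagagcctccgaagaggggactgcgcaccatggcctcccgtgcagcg
Lyz2, chr10:117282223-117282522, minus strand: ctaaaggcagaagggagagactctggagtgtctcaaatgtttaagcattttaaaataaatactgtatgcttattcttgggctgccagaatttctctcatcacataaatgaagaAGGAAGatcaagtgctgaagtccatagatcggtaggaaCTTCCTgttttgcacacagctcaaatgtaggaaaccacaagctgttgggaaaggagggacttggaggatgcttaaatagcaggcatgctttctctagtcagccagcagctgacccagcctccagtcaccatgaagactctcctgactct

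In C1qc the longer motif began at base 56 of the window on the opposite strand and a further AGGAAG at base 94, both upstream of the start. In Ctss the longer motif began at base 249 on the opposite strand and ran across the start. Laptm5 and Lyz2 held AGGAAG on both strands, at bases 18 and 212 in Laptm5 and at bases 114 and 152 in Lyz2, and not the longer motif. Lgals3, Aif1 and Gpnmb, which rose at 11 months, held neither motif in their windows.

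Dye orientation moved with many of the ratios. At each age, 31 of 37 members had a higher mean ratio on the 2 arrays with the knockout in Cy3 than on the 2 with it in Cy5. The per-array medians of the members were 0.29 and 0.12 (knockout in Cy5) and 0.45 and 0.53 (knockout in Cy3) at 11 months, and 0.22 and 0.09 (knockout in Cy3) and -0.06 and -0.21 (knockout in Cy5) at 6 weeks. The dye coefficient was below 0 for 31 members, with a median of -0.16, and was called for 5 (Tyrobp, Lyz2, Mpeg1, C1qa and C1qb), where 5.08% of all genes were called. The model removes a dye effect that is shared by both ages. With no dye coefficient 16 members passed at 11 months, where 28.4% of all genes were called. The calls that ended were those of Lyz2, C1qa, C1qb, Csf1r, Itgb2, Fcgr2b, Fcgr3 and Ncf1. At 11 months the mean ratio was above 0 in both orientations for 30 of 37 members and for 23 of the 24 called, the exception being Lyz2 (0.68 with the knockout in Cy3, -0.01 in Cy5). S100a8, S100a9 and Cd14 ran the other way at 11 months, with higher ratios where the knockout was in Cy5 (1.87, 2.31 and 1.35) than in Cy3 (0.35, 0.38 and 0.75). Msr1, Cd53 and Itgam also had the higher mean in Cy5 at that age. At 6 weeks Cd14 was again higher in Cy5 (1.23 against 0.57). S100a8 and S100a9 were then lower in Cy5 (-0.36 and -0.57) than in Cy3 (0.17 and 0.20). With a dye coefficient for each age, the 24 calls at 11 months and the 2 at 6 weeks were all kept, and 11 members passed for the difference between ages, the 7 among them. In that setting 38.4% of all genes were called at 11 months, 22.6% at 6 weeks and 23% for the difference.

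Other genes of the same pathways, from lists that hold no member, were read beside the members. For all the lists, the shares over all genes were 34.7% called at 11 months (17.9% higher and 16.8% lower) and 16.2% at 6 weeks. These shares are at the adjusted threshold, and none was counted for the unadjusted p. Of 22 other resident macrophage genes, 10 rose at 11 months and 0 fell (15 higher and 1 lower at an unadjusted p below 0.05 in limma), with a median of 0.52. Among them Pf4, a chemokine of platelets and resident macrophages, was at 0.98, 0.98, 2.15 and 0.82 (1.23 ± 0.19, adjusted p = 0.00189). Stab1, a scavenger receptor, fell at 6 weeks (-0.37 ± 0.08, adjusted p = 0.0205) and rose at 11 months (0.58 ± 0.08, adjusted p = 0.00112), so it moved as Lyz2 did. Igf1 rose at both ages (3.35 ± 0.35 at 11 months, adjusted p = 0.000339, and 2.37 ± 0.35 at 6 weeks, adjusted p = 0.0063), and adipocytes also make it.

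Of 24 other lipid-associated and lysosomal genes, 12 rose and 4 fell at 11 months, with a median of 0.21, and 7 rose and 3 fell at 6 weeks. Cd63, a lysosomal tetraspanin, had 1.99, 1.99, 2.15 and 1.85 at 11 months (2.0 ± 0.14, adjusted p = 6.99e-05). Apoe, the lipoprotein component, rose at 11 months (1.43 ± 0.12, adjusted p = 0.000133) and fell at 6 weeks (-0.50 ± 0.12, adjusted p = 0.0294). Lipa, the lysosomal acid lipase, fell at both ages (-1.34 ± 0.08 at 11 months, adjusted p = 3.99e-05, and -0.31 ± 0.08 at 6 weeks, adjusted p = 0.0402). Adipocytes express several of these genes, so the list is not particular to macrophages.

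Of 20 other inflammatory genes listed, only 11 were tested. Of these 11, 6 rose and 1 fell at 11 months, with a median of 0.24. Ccl2, the chemokine that recruits monocytes, had 2.73, 3.11, 0.86 and 0.51 at 11 months (1.80 ± 0.26, adjusted p = 0.0015) and -0.33, -1.07, -0.40 and -0.04 at 6 weeks. Socs3, induced by cytokine signalling, had 1.56, 1.69, 0.10 and 0.31 at 11 months (0.92 ± 0.28, adjusted p = 0.0369). Both were high on arrays 1 and 2 at 11 months, the arrays on which S100a8 and S100a9 were high.

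In the Fc and TREM pathway, 9 of 15 other genes rose at 11 months and 0 fell (10 and 0 at an unadjusted p below 0.05), among them the tyrosine kinase gene Syk (0.63, 0.51, 0.56 and 0.56, estimate 0.57 ± 0.05, adjusted p = 0.000175). All 4 further genes of the phagocyte oxidase and its regulators rose at 11 months, with Ncf4 at 0.91, 0.89, 1.12 and 0.82 (0.94 ± 0.12, adjusted p = 0.000822) and Cyba at 0.43, 0.64, 1.23 and 0.63 (0.73 ± 0.11, adjusted p = 0.00145). Among 16 other Toll-like receptor genes, 5 rose and 2 fell. Of 17 leukocyte adhesion and signalling genes, 10 rose and 2 fell, and the actin bundler Lcp1 had 0.59, 0.77, 1.32 and 0.83 (0.88 ± 0.09, adjusted p = 0.000252).

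Genes of the CSF1 axis, through which macrophages survive and divide, were also read. Both ligands of the receptor encoded by Csf1r rose at 11 months. Il34 had 1.31, 1.49, 0.88 and 1.61 (1.32 ± 0.12, adjusted p = 0.000184) and rose at 6 weeks as well (0.50 ± 0.12, adjusted p = 0.0298), with a difference of 0.82 (adjusted p = 0.0167). Csf1 had 1.51, 1.49, 0.41 and 0.43 at 11 months (0.96 ± 0.17, adjusted p = 0.00361) and did not pass at 6 weeks (adjusted p = 0.438). Over the 11 genes of this list, 6 rose and 1 fell at 11 months, and 2 rose at 6 weeks.

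**Figure D4:**
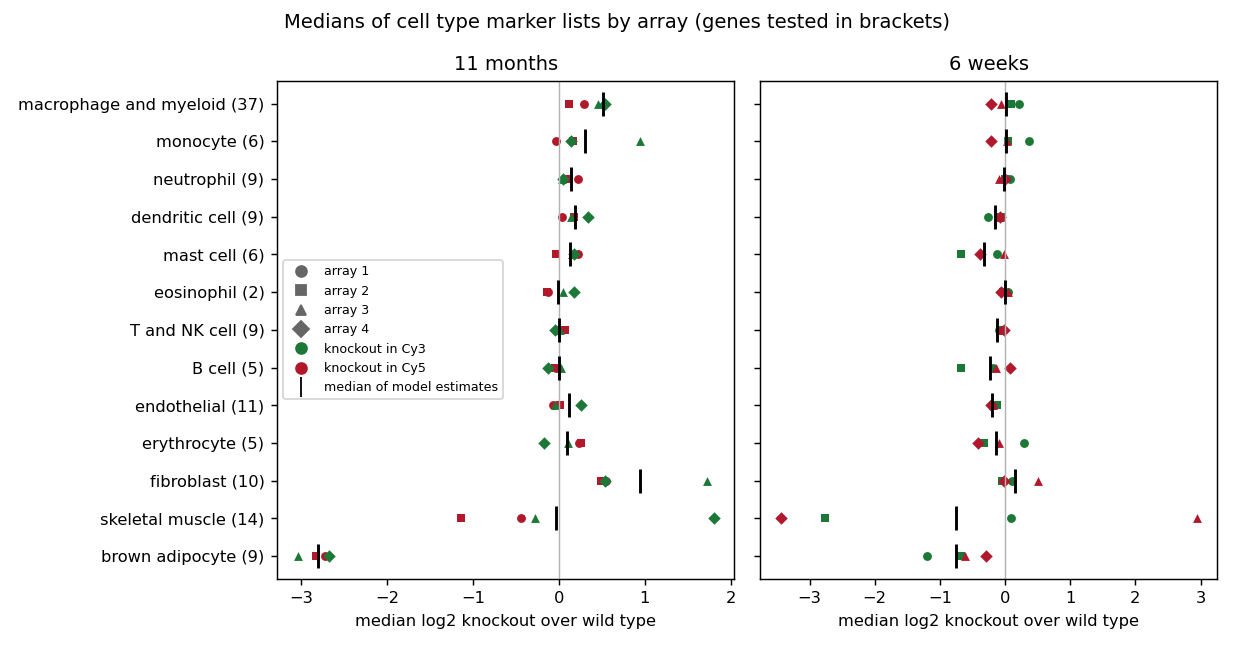
Median log2 ratio of knockout over wild type by array for the macrophage and myeloid genes and 12 marker lists of other cell types, at 11 months (left) and 6 weeks (right), with the median of the model estimates as a black bar. Fibroblast medians lie above 0 on all 4 arrays at 11 months, brown adipocyte medians lie at -2.68 or below at that age, and skeletal muscle medians spread to both sides of 0.

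Markers of other cell types moved with the members as follows. At 11 months 8 of 10 fibroblast genes rose and 0 fell, with array medians of 0.55, 0.49, 1.72 and 0.53, so array 3, which was highest for C1q, Ctss, Lgals3 and Fcer1g, was highest here too. All 9 brown adipocyte genes fell at 11 months, with a median of -2.81, and Ucp1 was at -3.07, -3.46, -6.21 and -3.46, again with array 3 the most changed. Over all genes, 34.7% were called at this age, 17.9% higher and 16.8% lower, and the leukocyte lists are read beside that share. In them 1 of 6 monocyte genes rose and 0 fell, 2 of 9 neutrophil genes rose and 1 fell, and 2 of 9 dendritic cell genes rose and 1 fell. For T and NK cells 0 of 9 rose and 1 fell, and for B cells 0 of 5 passed, with medians of 0.00 for both lists (at an unadjusted p below 0.05 in limma, 2 lower and 1 higher). Of 2 tested eosinophil genes, none passed. In the neutrophil list Retnlg (1.05, 0.60, 0.02 and 0.23) and Lcn2 (0.94, 0.59, 0.39 and -0.08) were the genes that rose, and both were highest on arrays 1 and 2. Without the 3 muscle-divergent arrays, 22.4% of all genes were called at 11 months. In that setting 7 of 10 fibroblast and 3 of 6 monocyte genes rose and 0 fell. For neutrophils 0 of 9 rose and 1 fell, and 0 of 9 dendritic cell genes passed. Of the pathway lists there, 11 of 22 resident, 4 of 11 inflammatory, 7 of 15 Fc and TREM and 4 of 4 oxidase genes rose, and 0 fell. Among 24 lipid-associated and lysosomal genes 12 rose and 2 fell, and among 16 Toll-like receptor genes 2 rose and 2 fell. Of 17 leukocyte genes 8 rose and 2 fell, and of 11 CSF1 axis genes 5 rose and 1 fell. The part of these cell types in the results was not tested.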

How the data were processed

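RNA of brown fat was hybridised to 8 2-colour Agilent arrays. The deposited scanner files hold foreground and background intensity per spot, read, per the file headers, by Agilent Feature Extraction 10.5.1.1 (6 weeks) and 10.10.1.1 (11 months), and the software's own deposited log10 ratio (Cy5 over Cy3, background-subtracted and dye-normalized). The deposited value table holds log2 ratios, for which the submitters' processing notes name limma. The sources used here do not give its normalization. Its values correlated with the ratios computed here at 0.885 to 0.978 in size, with a sign that followed the knockout dye, and were used as an alternative. Medians of its columns were -0.05 to 0.084.

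Mean intensities were background-corrected by normexp (offset 50) and normalized by loess within arrays in limma 3.58.1 (R 4.3.3). Spots marked as outliers (131 to 247 per array) were left out. Of 39429 probes, 26853 were kept, those with 4 or more of 16 channel measurements well above background and values from no fewer than 3 arrays per age, and the brightest stood for its gene. The number of arrays limits the precision. Of the genes tested, 14810 took a RefSeq symbol (GRCm38.p6) and 6932 the array's name. Intensities given per channel were further scaled between arrays (Aquantile). One model of all 8 arrays had a coefficient per age and a shared dye coefficient (5 residual degrees of freedom). The model was also run on simulated data with noise drawn independently for each gene and array. That setting holds no shifts shared by many genes of an array, so it does not bear on them.

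All 39 members are named, with Prdm16, and of the other lists a few of the called genes with the largest change at either age. Members and lists were chosen with earlier results of these data known, so lists have no test. The labels call the samples biological replicates. Alternatives covered background correction, normalization, the deposited values, the filter, several probes of a gene, the dye term, modelling each age alone, the replicate number as a block, and leaving out arrays.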

Additional observations from a re-analysis of the deposited data

Results flagged for a closer look

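At 11 months 4 members had 1 array far from the other 3. Fcer1g was at 1.73 on array 3, with the others between 0.33 and 0.52. Itgax was at 1.07 on array 4, with the others between 0.12 and 0.19. Msr1 was at 0.32 on array 1, with the others between 0.09 and 0.11, and its probe was dim. Ptprc was at 0.28 on array 3, with all others at -0.03. These are 4 of 74 groups of 4 arrays that were checked, and chance marks about 1 in 20 groups.

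The knockout effect differed between the ages, 11 months minus 6 weeks, by a limma contrast for 7 members. The differences were 0.95 for Ctss, 0.77 for Tyrobp, 0.77 for Emr1, 0.62 for Lyz2, 0.61 for C1qc, 0.54 for Laptm5 and 0.25 for Itgb2. These are 7 of 37 members, where 18.2% of all genes were called. The calls of Ctss, C1qc and Itgb2 ended when single arrays were left out, and 0 of the 7 held without 6-week arrays 2 and 4 and 11-month array 4. Batch and slide change with age and cannot be told apart from it.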

How the results depend on the processing

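The 11-month count of 24 stayed within 1.5 times under the settings tried, except when certain arrays were left out. It was 14 without 6-week replicates 2 and 4 and 11-month replicate 4 (22.4% of all genes called). Without 11-month replicate 1 it was 15 (24.9% of all genes called). It was 16 with no dye coefficient (28.4% of all genes called). It ranged from 15 to 25 when 1 array was left out (23.1% to 35.2% of all genes called). It was 29 with the scanner software's log ratio and with the deposited values (44.1% and 41.9% of all genes called). The median of 0.51 became 0.89 and 0.68 in these. Of the 24 calls, 15 held without any single array and 10 under every setting. The 6-week count of 2 was 1 with the scanner software's log ratio, median centring, the deposited values or no dye coefficient, 1 to 2 when 1 array was left out, and 8 (17.6% of all genes called) without the 4 arrays with the largest muscle medians, a setting chosen after seeing the data that leaves 1 array at 6 weeks, assumed to vary like the others. There S100a8 and S100a9 turned to 1.26 and 1.42 at 6 weeks, and the age difference of Trem2 to -1.81. The count of 7 age differences was 2 with no dye coefficient (11.6% of all genes called) and 11 with a dye coefficient per age (23%). It was 0 without the 3 arrays first named (10 higher and 1 lower at an unadjusted p below 0.05 in limma). When 1 array was left out it was 4 to 9 (9.74% to 14.8% of all genes called). The median age difference of 0.42 became 0.86 with the scanner software's log ratio and 0.32 without the 4 arrays. Same-numbered arrays of the 2 ages correlated at -0.2 to -0.0628 in their deviations from the age means. They hold the knockout in opposite dyes, so a dye effect lowers these values whether or not they are pairs. After the shared dye coefficient was also removed, they correlated at 0.459, 0.441, 0.167 and 0.316, but fitting 1 dye coefficient to both ages itself raises these values. There 6-week array 3 correlated best with 11-month array 4 (0.444), so not every array was closest to its own number. Within an age, arrays 1 and 2 share a dye, as do arrays 3 and 4. The difference between arrays 1 and 2 correlated at 0.0929 between the ages, and that between arrays 3 and 4 at -0.0611. The numbers were not taken as pairs. With the replicate number as a block the counts were 3 at 6 weeks, 25 at 11 months and 16 for the age difference. The shares of all genes called there were 19.3%, 35.6% and 19.5%. Over all genes, the shares called at 11 months, at 6 weeks and for the age difference became 22.6%, 4.36% and 2.54% with median centring, 23.2%, 10.4% and 11.7% with no filter on dim probes, and 22.4%, 3.68% and 3.17% without the 3 arrays. The causes were not tested. Signal over background limits Tnf, Spi1, Cd163, Msr1 and Cd53, and in part Cd68, Fcgr1 and Cybb.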
